A study of Mus musculus with 10 samples.

Results

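The 10 endothelial fatty acid uptake genes act in lipolysis or in fatty acid transport, activation and binding, or, for Meox2, encode a transcription factor. They were chosen by symbol, with earlier results of these data known: Lpl, Gpihbp1, Cd36, Slc27a1, Slc27a3, Slc27a4, Acsl1, Fabp4, Fabp5 and Meox2. All 10 were found among the 55385 genes of the deposited table, and all 10 passed the filter on low counts that left 17997 genes for testing.

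RNA was sequenced from sorted lung endothelial cells of Cdh5.iCreERT2xTnfsf10Lox/Lox mice. The group labelled EC-TRAIL KO (Cdh5.Cre Tg/W; 5 libraries) carried a tamoxifen-inducible Cre driven by the endothelial Cdh5 promoter, and the group labelled Control (Cdh5.Cre W/W; 5 libraries) did not. Both groups were L/L for Tnfsf10, that is, both carried its loxP-flanked alleles; Tnfsf10 is the gene of the death ligand TRAIL. Per the labels' protocols, the age was 8 to 14 weeks and tamoxifen was injected at 1 mg per mouse and day for 5 or 10 days, without saying which library had which course or whether Control mice were injected. The series' design text counts 4 Tg/W animals, where the labels and the table hold 5. The comparison asks what changes in lung endothelium when its TRAIL is deleted, and the Cre transgene and the deletion cannot be told apart in it. The labels do not say whether the libraries of a group come from different mice, and the spread that p-values rest on here may be technical.

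Capillary endothelium meets the fatty acid supply of a tissue in sequence. Lipoprotein lipase, bound to its anchor GPIHBP1 on the luminal face, releases fatty acids from triglyceride-rich lipoproteins. CD36 and the fatty acid transport proteins of the SLC27 family move them across the membrane, long-chain acyl-CoA synthetases trap them as acyl-CoA, and small cytosolic binding proteins of the FABP family carry them. In mouse heart capillaries the homeobox factor Meox2, as a partner of the basic helix-loop-helix factor Tcf15, is known to drive such genes.

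Library totals ran from 29806083 to 34702571 expected counts in libraries labelled EC-TRAIL KO and from 34435835 to 56897822 in Control libraries, so depth differed between the groups. Tnfsf10 itself had 198.9, 318, 126.3, 169.3 and 80.99 counts scaled to library size (CPM) in replicates 1 to 5 labelled EC-TRAIL KO, against 373.6, 369.5, 298.2, 323.3 and 304.6 CPM in Control replicates. Replicate 2 labelled EC-TRAIL KO thus lay within the Control range and the other 4 lay below it, and the log2 fold change, at -0.90 with an SE of 0.276, did not pass (edgeR adjusted p = 0.425). Counts per gene also take in exons that the deletion may leave, so they are a limited check of it. The endothelial markers Cdh5, at 3784 to 4146 CPM against 3511 to 4181 CPM in Control, and Pecam1, at 2201 to 2605 CPM against 1924 to 2384 CPM in Control, were high in every library.

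None of the 10 fatty acid uptake genes passed the test between the groups. By the quasi-likelihood test of edgeR, adjusted over all genes, 0 of 10 passed an adjusted p of 0.05, the smallest adjusted p being 0.997, where 0.439% of all genes tested passed as higher in libraries labelled EC-TRAIL KO and 0% as lower. At an unadjusted p under 0.05 there were also 0 of 10 in edgeR, against 3.81% of all genes that were higher at that p and 1.32% that were lower, 5.13% in all. DESeq2 called 0 of 10, against 1.16% of genes higher and 0.0167% lower. Limma-voom also called 0 of 10, but it called only 2 of all 17997 genes. In 0 of 10 genes did the groups fail to overlap, where 1.38% of all genes had the EC-TRAIL KO label wholly above Control and 0.261% wholly below. The log2 fold change was below 0 in 8 of 10 genes, against 52.6% of all genes, and its median was -0.14 against -0.0085 over all genes. One of the 8 was Fabp4, at -6e-04, and the number below 0 ran from 6 of 10, without replicate 2 labelled EC-TRAIL KO, to 9 of 10, without its replicate 5 or Control replicate 4. Without replicate 2 labelled EC-TRAIL KO that median was -0.058, and without Control replicate 3 it was -0.077.

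**Figure D1:**
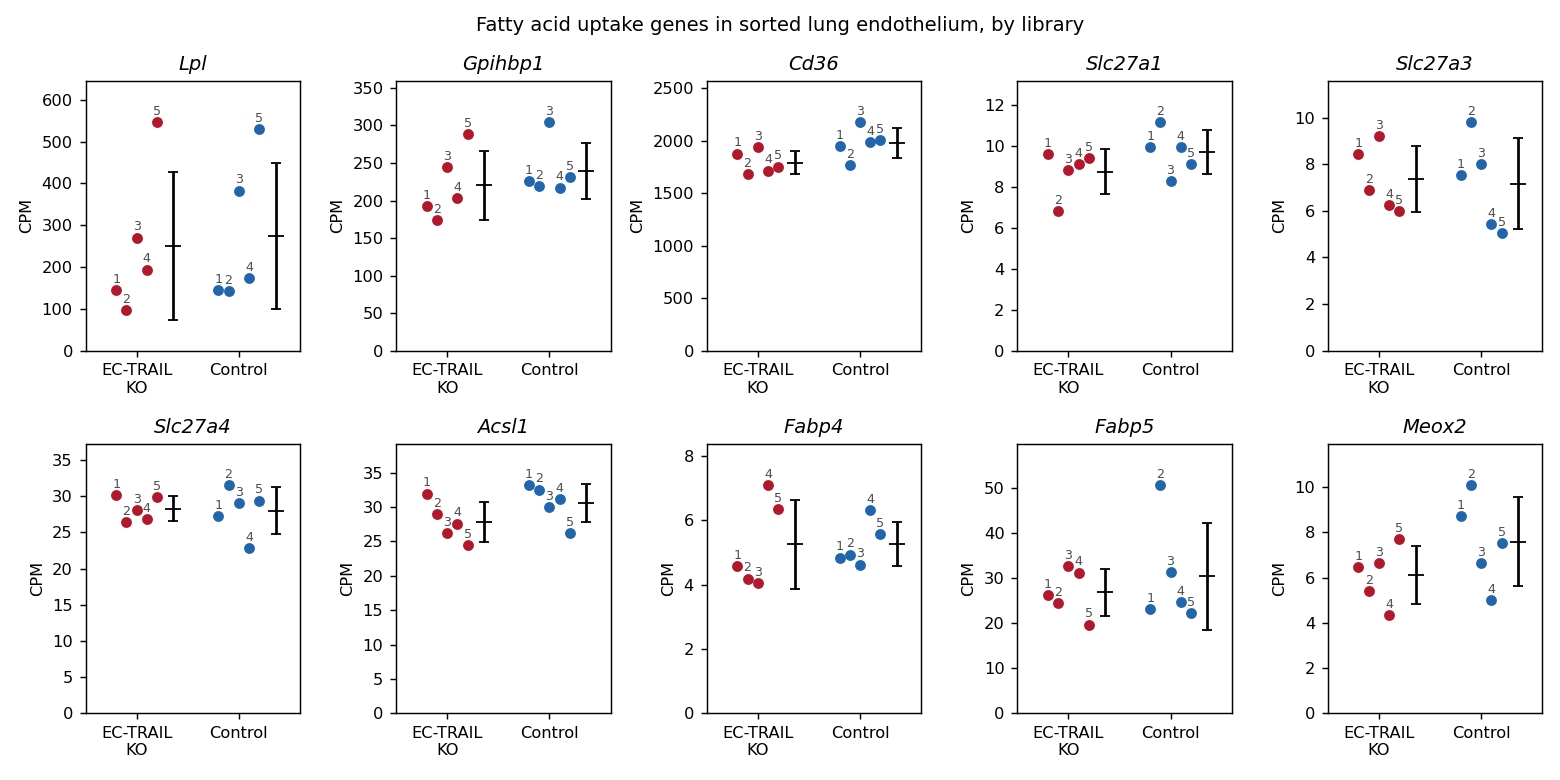
CPM of the 10 genes (y axis, from 0) in each library, with 5 libraries labelled EC-TRAIL KO in red on the left and 5 Control libraries in blue on the right of each panel; small digits are replicate numbers and black bars are the mean ± SD. The groups overlap in every panel, and Lpl spreads from 97.04 to 546.2 CPM.

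Levels were compared between genes as CPM per kilobase of exon (RPKM), with the union of annotated exons as length. Cd36 was highest, at 499.6 ± 30.4 RPKM in libraries labelled EC-TRAIL KO and 551.4 ± 40.6 RPKM in Control libraries (SD, n = 5 each), above 99.8% of tested genes. Gpihbp1 followed at 86.3 ± 18.01 RPKM and 93.7 ± 14.4 RPKM in Control (SD, n = 5 each), and the ranges of these 2 genes did not overlap. Lpl came next, at 23.9 ± 16.9 RPKM and 26.2 ± 16.7 RPKM in Control (SD, n = 5 each), with no overlap with Gpihbp1 but with overlap with Fabp5, which followed it. Over the 10 libraries Fabp5 averaged 8.02 RPKM and Slc27a4 6.38 RPKM, with overlapping ranges, and every library had both above the next genes. Meox2 at 2.9, Slc27a3 at 2.83 and Acsl1 at 2.79 RPKM did not differ beyond their spread. Slc27a1 averaged 1.58 RPKM and Fabp4 1.17 RPKM, with overlapping ranges, and Fabp4 lay above only 32% of tested genes. The order of the first 5 was the same with the longest transcript as length, but Lpl, at 23.6 to 132.7 RPKM, then overlapped Gpihbp1, at 105.1 to 184.3 RPKM. On that scale Lpl averaged 63.8 RPKM, Gpihbp1 139.1 RPKM and Acsl1, then above Slc27a3 and Meox2, 5.15 RPKM.

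**Figure D2:**
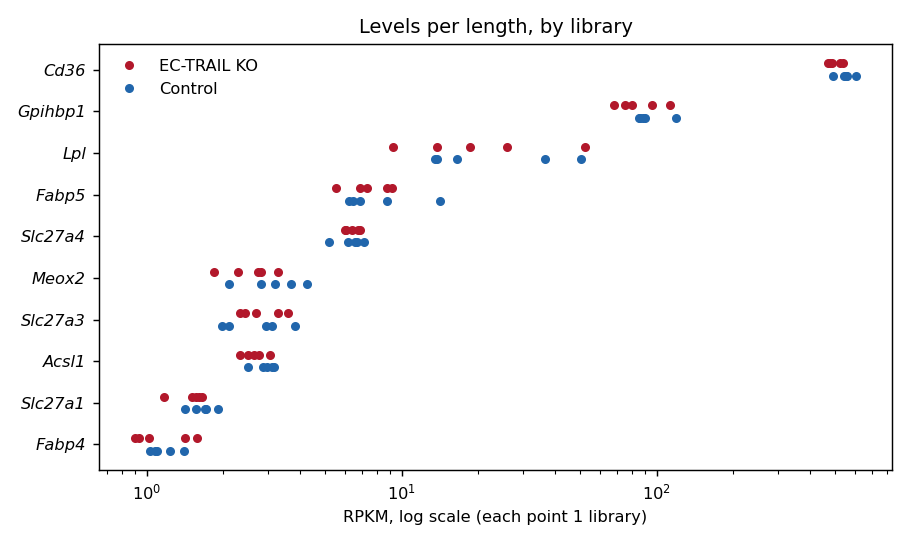
RPKM on a log scale (x axis) for each gene (y axis, ordered by mean), each point 1 library, with libraries labelled EC-TRAIL KO in red above Control libraries in blue. Cd36 and Gpihbp1 stand clear of the other genes, while Meox2, Slc27a3 and Acsl1 share a range.

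Lpl encodes lipoprotein lipase (ENSMUSG00000015568, GRCm38 chromosome 8, 68880491 to 68907448, plus strand). It had 144.8, 97.04, 270.3, 193.9 and 546.2 CPM in replicates 1 to 5 labelled EC-TRAIL KO, against 144.8, 142.2, 382.8, 172.8 and 530.4 CPM in Control replicates 1 to 5. Replicate 5 of each group was its highest library and replicate 3 of each group its second highest, while replicates 1, 2 and 4 of both groups lay at or below 193.9 CPM. The highest library was 5.63 times the lowest, the widest span of the 10 genes, and the SD was 70.8% of the mean in libraries labelled EC-TRAIL KO and 63.6% in Control. The log2 fold change was -0.13 with a 95% interval of -1.18 to 0.91, that is from 0.442-fold to 1.88-fold (edgeR adjusted p = 0.997; exact two-sided permutation p = 0.778 for this gene alone). Its sign turned without replicate 1 or 2 labelled EC-TRAIL KO or Control replicate 3 or 5, with a log2 fold change of 0.25 without Control replicate 5.

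The 3 genes whose level followed that of Lpl most closely over the 10 libraries, of 9527 with a mean of at least 10 CPM, were Sult1a1, Fkbp14 and Epb41. Likeness was the mean absolute difference in log2 CPM after each gene was centred on its own mean, which was 0.203 for Sult1a1, a cytosolic sulfotransferase, 0.27 for Fkbp14, a prolyl isomerase of the endoplasmic reticulum, and 0.278 for Epb41, a protein of the membrane skeleton, against a median of 0.722 over all candidates. Fkbp14 had 12.2, 21, 42.8, 23.1 and 64.8 CPM in replicates 1 to 5 labelled EC-TRAIL KO, against 14.2, 16.5, 47.2, 16.3 and 53.6 CPM in Control. Angptl4, a secreted inhibitor of lipoprotein lipase, was looked at after its values were seen, and had 3.62, 7.53, 26.3, 21.8 and 65.02 CPM in replicates 1 to 5 labelled EC-TRAIL KO, against 5.71, 13.8, 34.1, 22.3 and 32.5 CPM in Control. Replicates 3 and 5 of each group were the 2 highest libraries of their group for both genes, a likeness to Lpl by which they were chosen. Neither Fkbp14 (log2 fold change 0.15) nor Angptl4 (0.20, SE 0.648) passed between the groups (edgeR adjusted p = 0.997 for both).

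Gpihbp1 encodes the glycosylphosphatidylinositol-anchored protein that holds lipoprotein lipase on capillary endothelium, and it is a marker of the general capillary cells of mouse lung (ENSMUSG00000022579, chromosome 15, 75596628 to 75599481, plus strand). It had 192.1, 173.6, 244.2, 203.7 and 288.4 CPM in replicates 1 to 5 labelled EC-TRAIL KO, against 225.4, 218.8, 304.4, 217.2 and 230.8 CPM in Control. Replicates 1, 2 and 4 labelled EC-TRAIL KO lay below every Control library, and replicates 3 and 5 lay within the Control range. The log2 fold change was -0.12 (SE 0.14, 95% interval -0.42 to 0.19; edgeR adjusted p = 0.997; exact permutation p = 0.421). It was -0.019 without Control replicate 3, -0.045 without replicate 2 labelled EC-TRAIL KO and -0.23 without replicate 5 labelled EC-TRAIL KO. In the 9 genes of the general capillary list, which holds Gpihbp1, 0 passed. The median of that list, -0.12, is the value of Gpihbp1 itself and so is no separate value beside it. The summed level of the 9 genes was 7659 to 8203 CPM in libraries labelled EC-TRAIL KO and 7469 to 8862 CPM in Control.

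**Figure D3:**
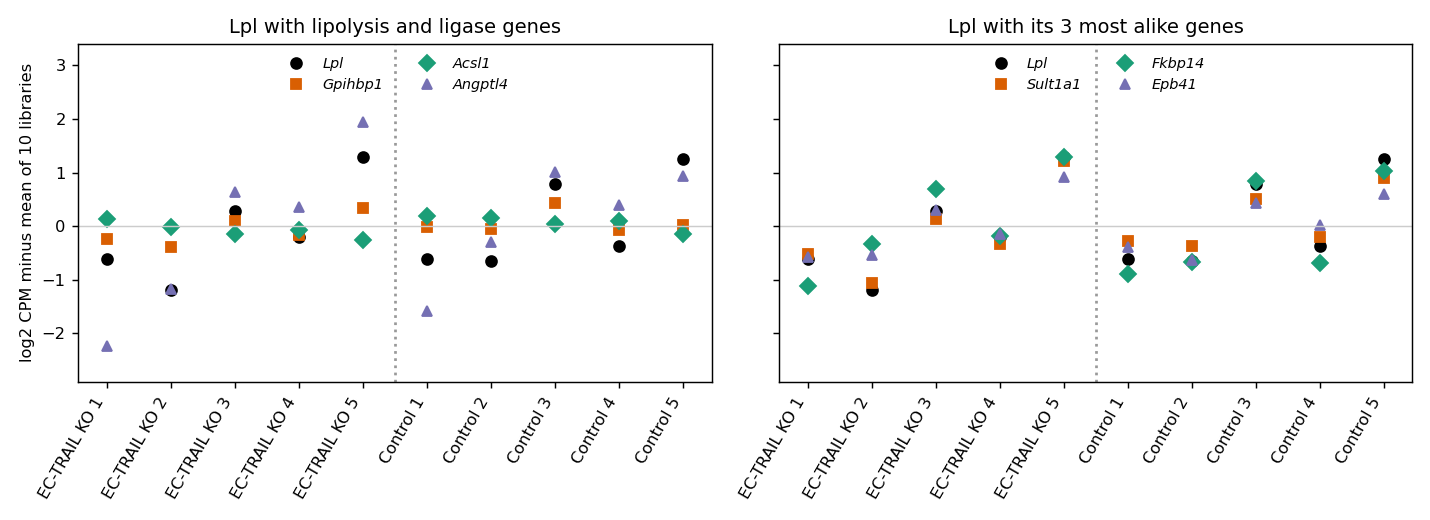
Log2 CPM minus the mean over 10 libraries (y axis) in libraries labelled EC-TRAIL KO on the left and Control libraries on the right of each dotted line, for Lpl with Gpihbp1, Acsl1 and Angptl4 (left panel) and for Lpl with Sult1a1, Fkbp14 and Epb41 (right panel). Lpl is highest in replicates 3 and 5 of both groups, as are Fkbp14 and Angptl4.

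Over the 10 libraries 45 pairs of the uptake genes were compared, and 0 of 45 had a correlation that passed after adjustment over the pairs, while 5 had an unadjusted permutation p under 0.05. The pair with the smallest p was Gpihbp1 and Lpl, enzyme anchor and enzyme, with Pearson's r = 0.804 (permutation p = 0.00488, adjusted p = 0.22) and Spearman's rho = 0.745 (permutation p = 0.0172, adjusted p = 0.27). Without the 2 libraries farthest from the median of Gpihbp1 r was 0.681, and 1.1% of all tested genes had an r to Gpihbp1 at least as high. Lpl and Acsl1 ran in opposite directions, with r = -0.714 (permutation p = 0.0243, adjusted p = 0.273) and rho = -0.745 (permutation p = 0.018, adjusted p = 0.27), but r was -0.379 without the 2 libraries farthest from the median of Lpl, and -0.561 without the 2 farthest from that of Acsl1. By the first of these the relation leans on the libraries extreme in Lpl. The other 3 pairs had an adjusted permutation p of 0.273 for r each. Fabp5 and Slc27a3 had r = 0.71 (permutation p = 0.0165) and rho = 0.77 (p = 0.0129), with r = 0.561 without the 2 libraries farthest from the median of Fabp5. Slc27a4 and Meox2 had r = 0.684 (permutation p = 0.0276) and rho = 0.661 (p = 0.0431), with r = 0.481 without the 2 farthest in Slc27a4. Fabp4 and Slc27a3 had r = -0.691 (permutation p = 0.0303) and rho = -0.624 (p = 0.0599), with r = -0.701 without the 2 farthest in Fabp4. No correlation was computed within a group of 5 libraries. The permutations swapped all 10 libraries freely, so any likeness of same-numbered libraries may make these p-values too small.

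Cd36 encodes the scavenger receptor that takes up long-chain fatty acids (ENSMUSG00000002944, chromosome 5, 17781690 to 17888801, minus strand). It had 1878, 1682, 1937, 1716 and 1755 CPM in replicates 1 to 5 labelled EC-TRAIL KO, against 1953, 1770, 2178, 1986 and 2010 CPM in Control. Replicates 2, 4 and 5 labelled EC-TRAIL KO lay below every Control library, and no library labelled EC-TRAIL KO lay above them all. The means were 1793 ± 109.1 CPM and 1979 ± 145.6 CPM in Control (SD, n = 5 each). This log2 fold change of -0.14 (SE 0.0775, 95% interval -0.31 to 0.03) did not pass (edgeR adjusted p = 0.997; unadjusted p = 0.0909). Cd36 had the smallest unadjusted p of the 10 genes in edgeR. For this gene alone the exact two-sided permutation test gave p = 0.0476, not adjusted for the 10 genes examined. With DESeq2 the unadjusted p was 0.0478 (adjusted p = 0.877), and without replicate 2 labelled EC-TRAIL KO the edgeR log2 fold change was -0.12 (edgeR unadjusted p = 0.17), while without Control replicate 2 it was -0.18 (edgeR unadjusted p = 0.037, adjusted p = 0.9999).

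RefSeq promoter windows, from 250 bases before to 50 bases after an annotated start, were found for 6 of the 10 genes (GRCm38.p6), with none for Lpl, Gpihbp1, Fabp4 and Fabp5. The windows of Cd36, the most highly expressed gene, and of Meox2, the transcription factor of the group, are shown because Meox2 and Tcf15 are known regulators of Cd36 in mouse heart endothelium. Capitals mark matches to the E-box CANNTG, the letters that basic helix-loop-helix factors read; both windows are printed 5′ to 3′ on the gene's strand, from chr5:17835847-17836146 (minus) and chr12:37108290-37108589 (plus).
Cd36: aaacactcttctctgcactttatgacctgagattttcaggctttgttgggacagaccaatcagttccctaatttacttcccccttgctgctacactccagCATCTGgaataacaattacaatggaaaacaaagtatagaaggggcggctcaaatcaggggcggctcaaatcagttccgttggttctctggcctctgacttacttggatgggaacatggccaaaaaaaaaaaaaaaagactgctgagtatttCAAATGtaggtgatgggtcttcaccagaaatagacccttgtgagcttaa
Meox2: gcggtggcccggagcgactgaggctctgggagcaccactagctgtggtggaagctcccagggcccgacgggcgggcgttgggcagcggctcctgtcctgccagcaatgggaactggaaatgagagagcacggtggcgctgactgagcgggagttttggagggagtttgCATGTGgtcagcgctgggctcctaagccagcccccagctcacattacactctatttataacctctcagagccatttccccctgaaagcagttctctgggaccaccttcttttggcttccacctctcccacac
The Cd36 window holds 2 E-box matches and the Meox2 window 1, where 72.3% of 32544 promoter windows hold at least 1. The homeobox letters TAATTA, searched on both strands, matched in 0 of the 9 windows of these 6 genes, against 5.29% of all windows. The Cd36 window lies at a start 52.7 kb inside the annotated GENCODE gene, so that other Cd36 starts lie outside it.

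Meox2 (ENSMUSG00000036144, chromosome 12, 37108540 to 37179534, plus strand) had the largest log2 fold change of the 10 genes, at -0.32 (SE 0.198, 95% interval -0.75 to 0.11; edgeR adjusted p = 0.997; exact permutation p = 0.214). It was -0.19 without Control replicate 2, where Lpl, at -0.30, was larger, and Lpl was also larger without Control replicate 1 or replicate 5 labelled EC-TRAIL KO. Without Control replicate 4 the log2 fold change of Meox2 was -0.43 (edgeR unadjusted p = 0.031, adjusted p = 0.791). Meox2 had 6.45, 5.41, 6.63, 4.33 and 7.7 CPM in replicates 1 to 5 labelled EC-TRAIL KO, against 8.7, 10.1, 6.65, 4.99 and 7.51 CPM in Control. Replicate 4 was the lowest library of each group, and 1 library labelled EC-TRAIL KO lay below every Control library. The transcript Gm48617, annotated as sense intronic, lies within Meox2 on the same strand. The expected counts of Meox2 were whole in all 10 libraries, with no sign of reads shared out by the counting model. Its partner Tcf15 had 1.34, 1.16, 1.47, 2.01 and 1.43 CPM in replicates 1 to 5 labelled EC-TRAIL KO, against 0.837, 0.952, 1.09, 1.32 and 0.976 CPM in Control. Tcf15 was thus low throughout, with a log2 fold change of 0.52 (SE 0.205), opposite in sign to that of Meox2, and did not pass (edgeR adjusted p = 0.816; unadjusted p = 0.0261).

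The fatty acid transport proteins couple uptake to acyl-CoA formation. Slc27a1 (ENSMUSG00000031808, chromosome 8, 71568882 to 71587302, plus strand) had 9.6, 6.83, 8.82, 9.11 and 9.39 CPM in replicates 1 to 5 labelled EC-TRAIL KO, against 9.95, 11.2, 8.29, 9.93 and 9.11 CPM in Control. Slc27a1 was lowest in replicate 2 labelled EC-TRAIL KO, and its other 4 libraries overlapped Control; its log2 fold change was -0.15 (95% interval -0.40 to 0.11), and -0.072 without replicate 2 labelled EC-TRAIL KO. Slc27a3 (ENSMUSG00000027932, chromosome 3, 90385239 to 90389938, minus strand) had 8.43, 6.9, 9.22, 6.25 and 5.97 CPM in replicates 1 to 5 labelled EC-TRAIL KO, all within the Control values of 7.54, 9.81, 7.99, 5.42 and 5.06 CPM. Slc27a4 (ENSMUSG00000059316, chromosome 2, 29802634 to 29817522, plus strand) was the most abundant of the family in reads per length and had 30.2, 26.4, 28.1, 26.8 and 29.9 CPM in replicates 1 to 5 labelled EC-TRAIL KO, against 27.2, 31.6, 29.02, 22.9 and 29.4 CPM in Control. Slc27a4 had the narrowest interval after Cd36 among the 10 genes, with a log2 fold change of 0.01 and a 95% interval of -0.18 to 0.21, that is from 0.883-fold to 1.15-fold. The interval of Slc27a3 was wider, at -0.38 to 0.45 around 0.04 (edgeR adjusted p = 0.997 for all 3 genes).

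Acsl1, the acyl-CoA synthetase that activates long-chain fatty acids (ENSMUSG00000018796, chromosome 8, 46471037 to 46536051, plus strand), had 31.95, 28.9, 26.2, 27.6 and 24.4 CPM in replicates 1 to 5 labelled EC-TRAIL KO, against 33.2, 32.5, 30, 31.2 and 26.2 CPM in Control. Within each group replicate 1 was highest and replicate 5 lowest, and only replicate 5 labelled EC-TRAIL KO lay below every Control library. The log2 fold change was -0.14 (SE 0.0894, 95% interval -0.33 to 0.06; edgeR adjusted p = 0.997; exact permutation p = 0.151). Its expected counts were not whole in any library, so part of its reads was shared out among genes by the counting model. The antisense transcript Gm45244 overlaps it, and, since no strand setting of the counting is named, their reads cannot be told apart.

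The binding proteins Fabp4 and Fabp5 lie 187.5 kb apart in a cluster of Fabp genes on chromosome 3. Fabp5 (ENSMUSG00000027533, 10012548 to 10016607, plus strand) had 26.2, 24.4, 32.7, 31.2 and 19.7 CPM in replicates 1 to 5 labelled EC-TRAIL KO, against 23.1, 50.6, 31.4, 24.6 and 22.2 CPM in Control. Control replicate 2 stood above all other libraries, and without it the log2 fold change was 0.08, against -0.18 with it (95% interval -0.66 to 0.30; edgeR adjusted p = 0.997). That library also had the highest summed CPM of the alveolar epithelial markers, 13660 against 7749 to 10820 in the other 9, and of the macrophage and monocyte markers, 1935 against 1109 to 1662; their part in the Fabp5 value was not tested. The expected counts of Fabp5 were not whole in any library either, so its level is uncertain by reads shared with like sequences. Fabp4 (ENSMUSG00000062515, 10204088 to 10208576, minus strand) had 4.58, 4.18, 4.03, 7.09 and 6.34 CPM in replicates 1 to 5 labelled EC-TRAIL KO, against 4.83, 4.93, 4.62, 6.31 and 5.56 CPM in Control. Replicates 4 and 5 were the highest libraries of both groups, and the group means were 5.25 ± 1.38 CPM and 5.25 ± 0.689 CPM in Control (SD, n = 5 each); the log2 fold change was -6e-04 with a 95% interval of -0.39 to 0.38.

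The 3 genes most like Fabp5 by the same measure were Zfp827 at 0.142, Dpy19l3 at 0.146 and Npas2, a transcription factor of the circadian clock, at 0.152, against a median of 0.313 over all candidates. Npas2 had 12.1, 9.36, 13.5, 13.4 and 7.07 CPM in replicates 1 to 5 labelled EC-TRAIL KO, against 8.6, 14.7, 12.4, 12.2 and 9.26 CPM in Control. As in Fabp5, the highest library was Control replicate 2 and the lowest was replicate 5 labelled EC-TRAIL KO, a likeness by which Npas2 was chosen.

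**Figure D4:**
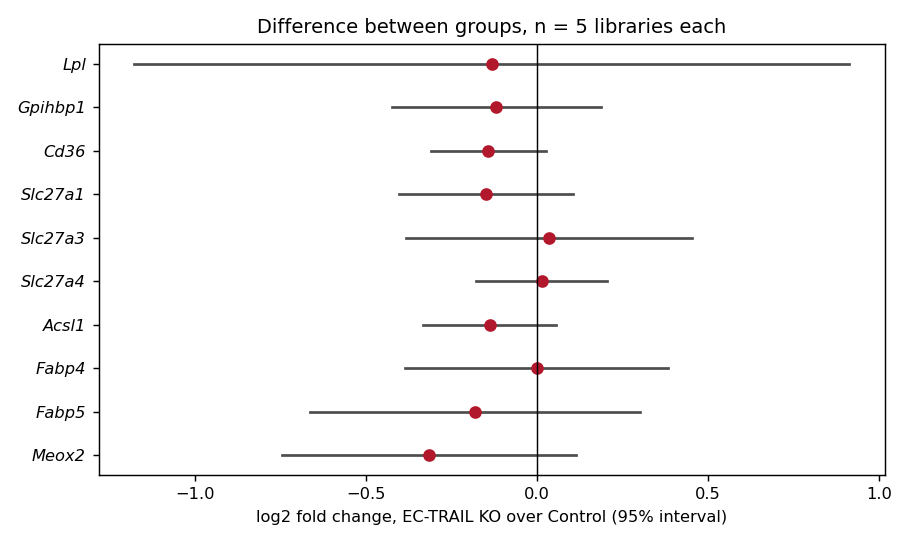
Log2 fold change of libraries labelled EC-TRAIL KO over Control libraries (x axis) for each gene (y axis), with points as edgeR estimates and lines as 95% intervals (n = 5 libraries each). Every interval includes 0, and the interval of Lpl, from -1.18 to 0.91, is the widest.

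Replicate 2 labelled EC-TRAIL KO, the library that kept Tnfsf10 at the Control level, was the lowest of all 10 libraries for 4 of the 10 genes, Lpl, Gpihbp1, Cd36 and Slc27a1, where it was lowest for 16.2% of all genes tested. A library labelled EC-TRAIL KO was lowest for 8 of 10 genes, against 53.9% of all genes. Replicate 2 also had the highest Top2a, a gene of dividing cells that was chosen after its values were seen, at 170.2 CPM against 33.2 to 85.8 CPM in the other libraries with its label and 10.9 to 20.95 CPM in Control. It had the lowest sums of the alveolar epithelial (7749 CPM), macrophage and monocyte (1109 CPM), fibroblast (612.4 CPM) and pericyte and smooth muscle markers (272.5 CPM). The sum of adipocyte markers (0.199 CPM), all too low to test, was also its lowest there. Its sums of the other leukocyte (9.887 CPM) and aerocyte capillary markers (3810 CPM) were instead the highest of the 10 libraries. Those of pan-endothelial (18170 CPM), general capillary (8102 CPM), platelet and erythroid (25.41 CPM) and cardiomyocyte markers (2.92 CPM) were neither. The part of cell makeup in the low values of the 4 uptake genes was not tested, and in bulk RNA fewer cells of a type and less RNA per cell cannot be told apart.

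Other cell types can express these genes, among them macrophages, adipocytes, lipofibroblasts and alveolar epithelium. The 7 adipocyte markers, Adipoq and Plin1 included, were all too low to test, with sums of 0.199 to 0.691 CPM in libraries labelled EC-TRAIL KO and 0.235 to 0.737 CPM in Control. Of the 12 macrophage and monocyte markers 5 were too low to test, Adgre1, Marco, Siglecf, Itgax and Fcgr1, at no more than 0.664 CPM each, and the sum of 1109 to 1607 CPM in libraries labelled EC-TRAIL KO and 1289 to 1935 CPM in Control was mostly Lyz2, at 1267 ± 179.7 CPM and 1404 ± 279.2 CPM in Control (SD, n = 5 each), which alveolar cells express too. Other macrophage markers were present: Cd68 averaged 34.75 CPM and 36.28 CPM in Control, and Mrc1 22.8 CPM and 14.91 CPM in Control. Mrc1 had the smallest p of the list, with a log2 fold change of 0.61 (edgeR unadjusted p = 0.0112, adjusted p = 0.55). Of the 7 tested, 5 had a log2 fold change below 0 and 0 passed. The 12 alveolar epithelial markers were present, with sums of 7749 to 10820 CPM in libraries labelled EC-TRAIL KO and 9031 to 13660 CPM in Control; 0 of 12 passed and 11 had a log2 fold change below 0, with a median of -0.12. In the 4 libraries with the highest Lpl, replicates 3 and 5 of both groups, that sum was 9726, 9970, 9534 and 10670 CPM, within the range of the other 6. The 10 fibroblast and lipofibroblast markers had sums of 687.7, 612.4, 1112, 911.3 and 1072 CPM in replicates 1 to 5 labelled EC-TRAIL KO, against 895.8, 1089, 1055, 927.5 and 804.6 CPM in Control; 0 of 10 passed and 9 had a log2 fold change below 0, with a median of -0.14. Replicates 3 and 5, high in Lpl in both groups, had the highest of these sums among libraries labelled EC-TRAIL KO, while in Control replicate 5 had the lowest. The part of these cells in the uptake genes was not tested. No marker was at 0 in all libraries.

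The surrounding fatty acid genes, in 5 lists, did not pass either. Of 19 regulators of uptake 0 rose and 0 fell, with a median log2 fold change of 0.03. Rbpj, the DNA-binding factor of Notch signalling, was at 55.2 ± 1.83 CPM and 60.6 ± 3.14 CPM in Control (SD, n = 5 each), with -0.13 on the log2 scale (edgeR adjusted p = 0.911), and Ppargc1a, a coactivator of mitochondrial genes, had -0.31. Of 18 genes of lipoprotein lipolysis and lipoprotein receptors 15 were tested and 0 passed, with a median of -0.063; the endothelial lipase gene Lipg had -0.28 and the apolipoprotein gene Apoc1 -0.24. Of 15 other transporters, binding proteins and acyl-CoA ligases 7 were tested and 0 passed, with a median of -0.047. Among them Acsl4, a ligase that favours arachidonic acid, was at 91.04 ± 6.92 CPM and 100.7 ± 13.5 CPM in Control (SD, n = 5 each), with a log2 fold change of -0.15, while Slc27a6 had -0.27 and the heart-type binding protein gene Fabp3 -0.29. The other Fabp genes listed, Fabp1, Fabp2, Fabp6 and Fabp7, were too low to test, with at most 4 counts in any library.

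Downstream of uptake, 0 of 19 genes of mitochondrial fatty acid oxidation passed, with a median log2 fold change of -0.024 and a range of -0.20 to 0.15; Eci1, an enoyl-CoA isomerase, had -0.20, Acaa2, a thiolase, -0.13 and Decr1, a dienoyl-CoA reductase, -0.12. Of 18 genes of triglyceride storage and lipid droplets 17 were tested and 0 passed, with a median of -0.054 and 13 of 17 below 0. Mgll, monoacylglycerol lipase, had the smallest p in that list, with 142, 97.9, 123.3, 115.1 and 127.4 CPM in replicates 1 to 5 labelled EC-TRAIL KO, against 145.4, 137.9, 146.4, 150.9 and 137.8 CPM in Control. Replicates 2 to 5 labelled EC-TRAIL KO lay below every Control library and replicate 1 within them, and the log2 fold change was -0.25 (SE 0.0884; unadjusted p = 0.0163, adjusted p = 0.69, edgeR). G0s2, an inhibitor of triglyceride lipase, had -0.39 and Gpam, a glycerol phosphate acyltransferase, -0.13, neither passing. The medians of these lists stand beside -0.0085 over all genes.

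**Figure D5:**
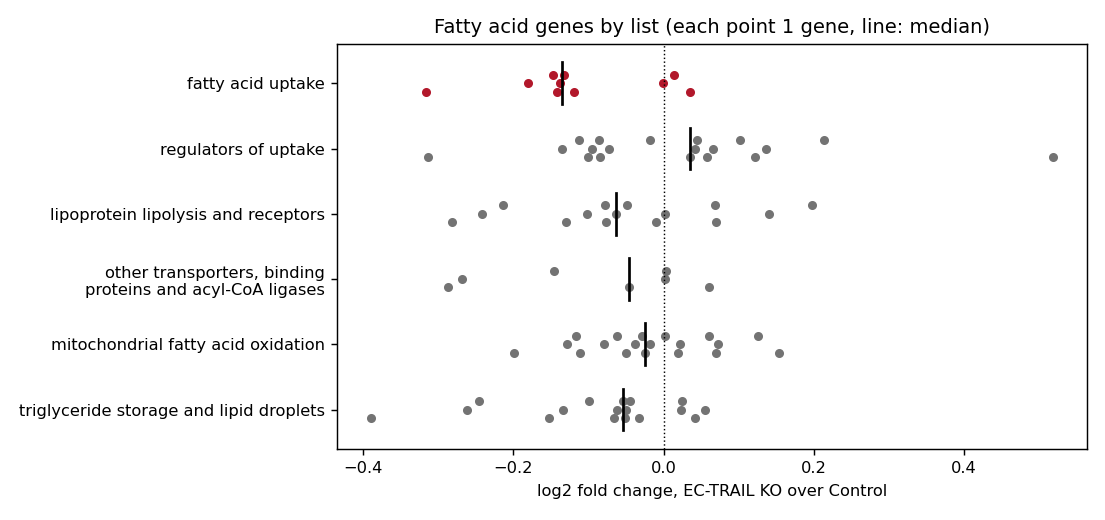
Log2 fold change of libraries labelled EC-TRAIL KO over Control libraries (x axis) for each tested gene (points) of the uptake group, in red, and of the 5 surrounding lists, in grey, with black lines at list medians. The medians lie between -0.14 and 0.03.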

How the data were processed

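The table the authors deposited holds RSEM expected counts per gene, not normalized, for 10 libraries. The tools STAR 2.7.1a and RSEM 1.2.28 and the build GRCm38 come from the submitters' processing notes; sources used here name no annotation release, filter or strand setting of the counting. Libraries were made from poly-adenylated RNA with a stranded kit, per the labels' protocols. Symbols, positions and exon lengths came from GENCODE M21 (GRCm38), which matched 55144 of 55385 identifiers. Expected counts were rounded, and edgeR 4.0.16 under R 4.3.3 gave the tests (filterByExpr with a minimum count of 10, TMM scaling, quasi-likelihood F-test, group as the only term, Benjamini-Hochberg over 17997 genes, threshold 0.05); DESeq2 1.42.0 and limma 3.58.1 were alternatives. The fit was tested on simulated data. CPM and RPKM used TMM library sizes, and log2 CPM a prior count of 2. Intervals at 95% used the F statistic's SE and degrees of freedom. Correlations used 100000 resamples. Other genes named are, in each list, any that passed and up to 3 more with the smallest p, Tnfsf10, Cdh5 and Pecam1, and the 3 most alike of the 2 genes with the widest range; Angptl4, Top2a, Ucp2 and the markers and Fabp genes named as too low were chosen outside that rule. One gene that the rule names is not reported here. The 10 genes and all lists were chosen with earlier results of these data known. No set test was run.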

Additional observations from a re-analysis of the deposited data

Results flagged for a closer look

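Among the 20 combinations of an uptake gene and a group, 2 had a library set apart from the other 4 by a gap that was large for the range of its group. Slc27a1 in replicate 2 labelled EC-TRAIL KO, at 6.83 CPM, was lowest by a gap of 0.717 of the range of that group. Gpihbp1 in Control replicate 3, at 304.4 CPM, was highest by a gap of 0.845 of the range. The limit was 0.71 for 5 libraries, and chance flags about 1 in 20 such groups.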

How the results depend on the processing

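In each of 19 alternatives 0 of the 10 genes passed, with a smallest adjusted p of 0.518 (Acsl1 with the replicate number as a block), and their median log2 fold change ran from -0.16 to -0.058. The count over all genes, 79, was 2 with library size only, 2 with limma-voom with or without quality weights, 211 with DESeq2, 143 with no filter, 1 with a covariate made of non-endothelial markers, and 2 to 155 without 1 library (155 without replicate 1 labelled EC-TRAIL KO, 2 or 3 without its replicate 3 or 4 or any Control library). With the replicate block it was 149. The block gave an unadjusted edgeR p of 0.036 for Acsl1 and 0.0598 for Cd36 (adjusted p = 0.518 and 0.589), and it changed no call of the 10 genes. For Lpl the block gave a log2 fold change of -0.17 (edgeR unadjusted p = 0.167, adjusted p = 0.747). The SE of Lpl was 0.112 with the block, against 0.48 in the main fit. The labels do not say what a number shares. The deviations of same-numbered libraries correlated at 0.152 to 0.521 in 4 of 5 pairs, each best with its own number, and at 0.085 in replicate 2, so pairing is a hint from the data and was not taken as given. The sign of the log2 fold change held in all 19 for 5 genes, Cd36, Gpihbp1, Slc27a1, Acsl1 and Meox2, and turned in at least 1 for the other 5. The sign of Fabp4 turned with RLE factors (3e-04), DESeq2 (5e-04) and the covariate (0.0738). Without 1 library in turn the log2 fold change ran from -0.13 to 0.0803 for Fabp4, -0.27 to 0.0835 for Fabp5, -0.64 to 0.25 for Lpl, -0.065 to 0.18 for Slc27a3 and -0.051 to 0.0601 for Slc27a4; the cause was not tested. The exact permutation p of Cd36 was 0.0476 on CPM as on log2 CPM. Every library had at least 126 counts of each of the 10 genes.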

Other observations

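Replicate numbers are names in the labels with no stated meaning, yet the uptake genes differed in how far their levels went with them. Of the sum of squares of log2 CPM over the 10 libraries, 95.7% lay between replicate numbers for Lpl, a share that 1.19% of 14726 genes with a mean of at least 1 CPM reached, and 1.06% lay between the groups. For Fabp4 the number held 88% (reached by 8.54% of genes) and the group 0.332%. The median gene had 59.3% by number and 5.58% by group. Slc27a1 stood at the other end, with 16.7% by number and 17.8% by group. Cd36 had the largest group share of the 10 genes, 39.6%, which 5.38% of genes reached. Ucp2, an uncoupling protein of the mitochondrial membrane that was looked at after its values were seen, had 305.9, 319.2, 459.4, 473.1 and 1113 CPM in replicates 1 to 5 labelled EC-TRAIL KO, against 390, 312.4, 613.8, 450.9 and 713.6 CPM in Control.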
